A study of Drosophila melanogaster with 15 samples.

Results

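The genes described here are 41 Drosophila genes whose symbol is still an annotation number (CG and digits). Their transcripts differed between early night and morning in wild-type pacemaker neurons. These genes were chosen by their values in the 6 wild-type arrays of ventral lateral neurons (LNvs). A gene needed a single platform symbol of the CG form and log2 values of 4 or more in no fewer than 3 of the 15 arrays. The mean of its 3 arrays at zeitgeber time (ZT) 15 had to lie at least 2 above or below the mean of its 3 arrays at ZT3, with no overlap between the 3 and 3 values. A gene with several probe sets (the groups of probes that measure a transcript) was represented by the brightest on average, and CG31675, CG9338 and CG14186 were left out by name. Of 5209 CG-number genes on the array 1324 passed the level filter, and 41 of these are described, 20 higher at ZT15 and 21 higher at ZT3. The array held 11981 genes with a single symbol in all, 4718 of them past the filter.

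The arrays measured RNA from fluorescently labelled neurons sorted from the brains of third-instar larvae kept at 25 °C in alternating 12 h light and 12 h dark phases. There were 5 groups of 3 arrays, which the titles call biological replicates. The cyc0 LNvs (yw, Pdf-RFP, cyc0) and the per0 LNvs (yw, per0; Pdf-RFP) were taken at ZT15, or 3 h into the dark phase. The wild-type LNvs (yw, Pdf-Gal4; UAS-GFP) were taken at ZT15 and at ZT3. The elav neurons (elav-Gal4, UAS-GFP) were taken at ZT15 with a driver that is active in neurons generally. Both mutants carried the red reporter and the other groups the green one, and the protocol in the labels names red cells for every array. The elav arrays likewise have LNvs as their tissue label, while their Pdf level, given below, was near the bottom of the scale. A mutant and wild-type LNvs therefore differed in reporter as well as genotype.

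LNvs make the neuropeptide Pigment-dispersing factor and hold a circadian clock. In that clock the proteins CLK and CYC activate genes such as per and tim around dusk, and the PER and TIM proteins later repress CLK and CYC. The cyc0 mutation removes the activator CYC and the per0 mutation removes the repressor PER, so the 2 mutants interrupt the loop at opposite points and neither has a running clock. A CG number is the identifier a gene receives in the genome annotation before a name is given. In the RefSeq gene table used here most of these genes have no further name, or only clone names and older numbers. All 41 were protein coding in the RefSeq table and still carried the same number. A few have a synonym there that names a known protein or family, and 4 of these are given with their roles. CG11267 is listed as Hsp10, the co-chaperonin that works with Hsp60 in mitochondria. CG32267 is listed as Tom5, in yeast a small subunit of the complex that imports proteins into mitochondria. CG17760 has Galphaq among its synonyms, a name for the class of G protein alpha subunit that couples receptors to phospholipase C. Its symbol there remains the CG number, as for all 41 genes, and its values are not labelled as Galphaq below. CG17019 is listed as dRNF34, and mammalian RNF34 is a RING-type ubiquitin ligase.

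Between 3520 and 5436 probe sets per array reached a log2 value of 4. The correlation of an array with the others of its group averaged between 0.868 and 0.937 over probe sets. The transcript of tim averaged 2.98 ± 0.20 in cyc0 LNvs, 10.89 ± 0.16 in per0 LNvs, 10.89 ± 0.18 in wild-type ZT15 LNvs, 2.97 ± 0.14 in wild-type ZT3 LNvs and 4.37 ± 1.22 in elav neurons (log2 level ± SD, n = 3). Thus per0 LNvs lay at the wild-type ZT15 level of this CLK/CYC target and cyc0 LNvs at the wild-type ZT3 level. Pdf lay between 12.50 and 13.02 on average in the LNv groups, against 3.70 ± 0.73 in elav neurons. The neuron marker elav averaged 7.74 in cyc0 LNvs, 5.73 in per0 LNvs, 5.58 in wild-type ZT15 LNvs, 7.76 in wild-type ZT3 LNvs and 8.75 in elav neurons. It was lower in per0 LNvs than in elav neurons (-3.03, limma adjusted p = 0.00306). Of 4 neuron markers past the filter no other was called in a comparison tested. The others had positive differences in per0 LNvs against elav neurons, fne by 0.81, nSyb by 0.75 and Rbp9 by 0.33. The part of elav in the genes described was not tested. Markers of hemocytes, photoreceptors, muscle and trachea did not reach the level filter. Of 4 fat body markers on the array 2 reached it, Lsp2 and apolpp, apolpp being at 4.56 in cyc0 LNvs, 3.69 in per0 LNvs, 3.31 in wild-type ZT15 LNvs, 3.96 in wild-type ZT3 LNvs and 5.31 in elav neurons on average, and neither was called in any comparison tested. The summed level of 7 glia markers on the array was log2 6.59 to 7.43 in cyc0 LNvs, 6.21 to 6.89 in per0 LNvs, 7.22 to 8.34 in wild-type ZT15 LNvs, 8.21 to 8.90 in wild-type ZT3 LNvs and 8.07 to 8.52 in elav neurons. The defining glia marker repo averaged 2.98 in wild-type ZT15 LNvs and 5.61 in wild-type ZT3 LNvs. The means of Gs2, nrv2, moody and wrapper were also higher at ZT3. Those of alrm (3.58 at ZT15, 3.22 at ZT3) and Gat (3.33 and 3.17) were lower. Of the glia markers only nrv2 was called in a comparison tested, lower in per0 LNvs than in elav neurons (-1.92, limma adjusted p = 0.049). The part of glia markers in the genes higher at ZT3 and in the calls against elav neurons was not tested. In sorted bulk samples, fewer cells of a type and less RNA per cell cannot be told apart.

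The values used by the rule are a description and carry no test. With the 2 genes that met it but were left out by name, 43 of 1324 CG-number genes past the filter qualified (3.25%), and 93 of 3394 genes with other symbols (2.74%). The differences of the 41 genes reached 3.55 among those higher at ZT15 and -4.44 among those higher at ZT3. A further 8 CG-number genes differed by at least 2 but had overlapping arrays, 3 of them higher at ZT15 and 5 higher at ZT3. At the threshold, CG9231 (2.03) and CG17760 (-2.04) lay just inside, and CG9705 (1.96) and CG5021 (-1.99) just outside. The smallest distance between a ZT15 and a ZT3 array of the same gene ran from 0.11 for CG10874 to 2.45 for CG10089. For 6 of the 20 genes higher at ZT15 and 7 of the 21 higher at ZT3, all 3 arrays of the lower time lay below log2 4, a working level near the bottom of the scale, where differences may be understated.

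**Figure D1:**
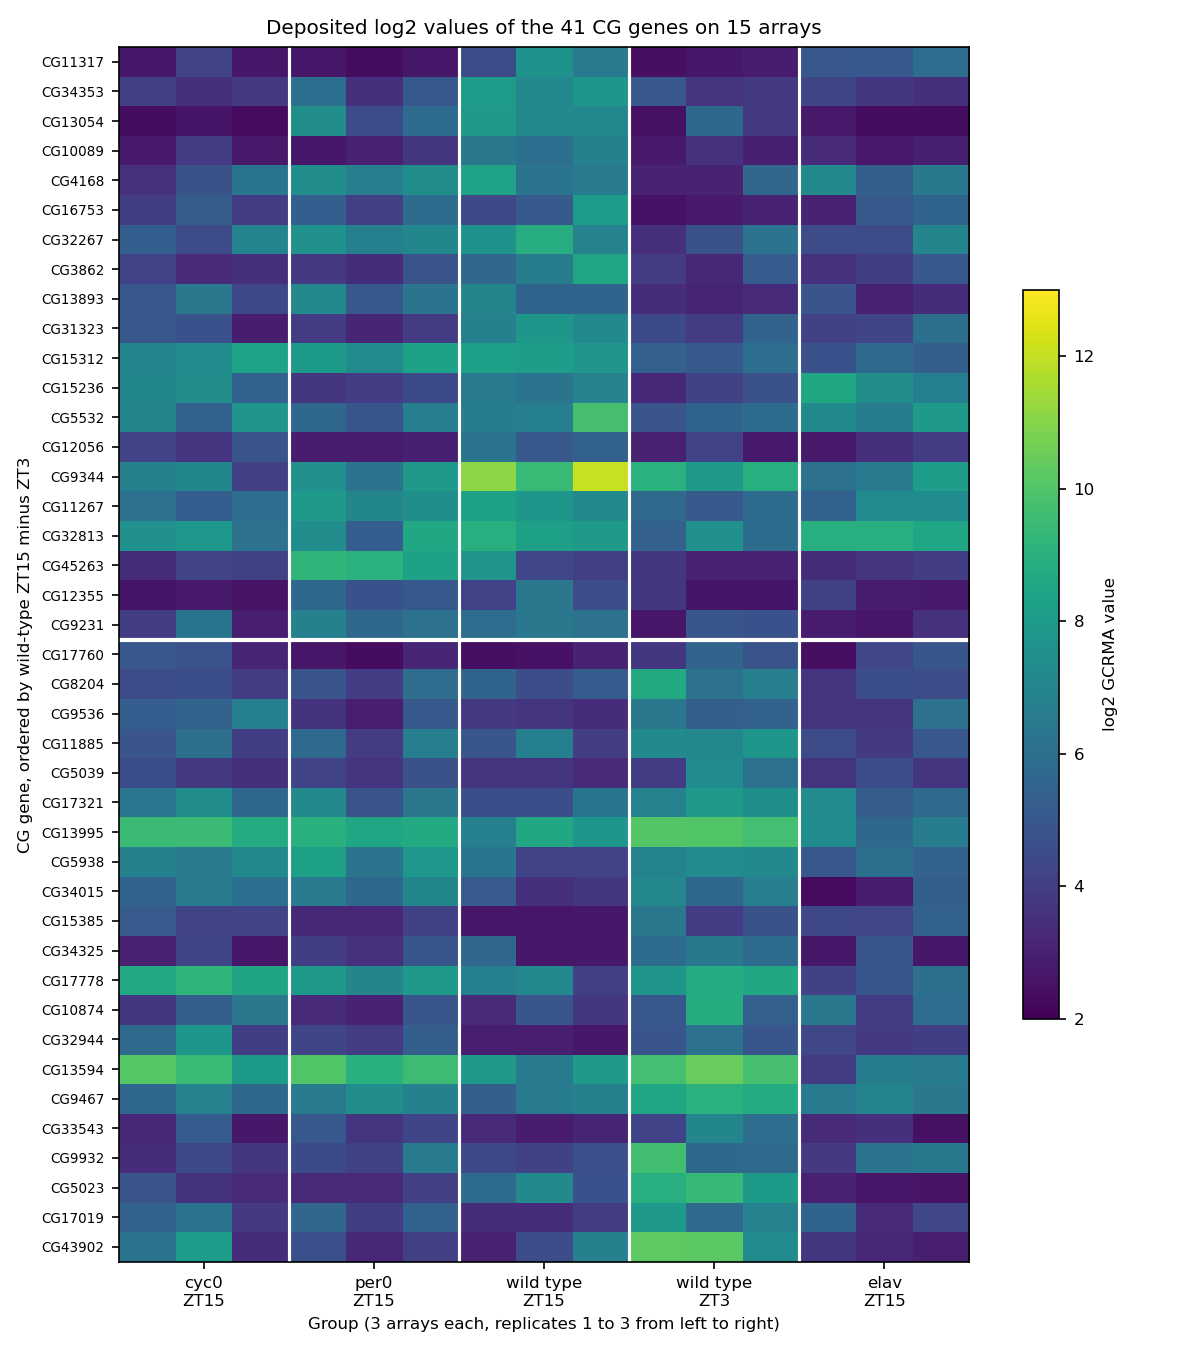
Log2 level of the 41 genes (rows, by direction and size of the wild-type difference) on each of the 15 arrays (columns, 3 per group: cyc0, per0, wild type ZT15, wild type ZT3, elav). Genes higher at ZT15 had a median group mean of 4.41 in cyc0 LNvs and 5.86 in per0 LNvs; genes higher at ZT3 had 5.16 and 4.94.

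The comparison of cyc0 with per0 LNvs set against each other the means of 6 arrays that the time difference of the rule did not use. Its estimate of the spread came from all 15 arrays, among them the 6 wild-type arrays of the rule, so the p-values are not independent of the choice of genes. Both strains carried Pdf-RFP and were sampled at ZT15. The comparison asked how these transcripts differ between a strain whose clock lacks its activator and a strain whose clock lacks its repressor. Other differences between the strains cannot be told apart from the clock mutations. Of the 41 genes 2 passed the test, CG45263 and CG13054, both lower in cyc0 LNvs and both among the 20 higher at wild-type ZT15. In a fit to the 6 mutant arrays alone, CG45263 passed and CG13054 did not. The test was limma over all 5829 probe sets past the filter, with p-values adjusted by Benjamini-Hochberg at a threshold of 0.05. It called 46 probe sets in all (0.789%), 26 of them lower in cyc0 LNvs (0.446%) and 20 higher (0.343%), and 586 had an unadjusted p under 0.05. None of the 21 genes higher at ZT3 passed in limma, and 2 of them had an unadjusted p under 0.05, against 8 of the 20 higher at ZT15.

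CG45263 had the largest difference between the mutants. Its log2 levels were 3.45, 4.26 and 4.18 in cyc0 LNvs, 9.22, 9.01 and 8.28 in per0 LNvs, 7.75, 4.33 and 4.10 in wild-type ZT15 LNvs, 3.79, 3.10 and 3.10 in wild-type ZT3 LNvs, and 3.42, 3.67 and 3.98 in elav neurons. All 3 per0 arrays lay above every other array, while the cyc0 arrays lay in the range of the elav and lower wild-type arrays. CG45263 fell by 4.87 on the log2 scale in cyc0 relative to per0 LNvs (SE 0.74, limma adjusted p = 0.00188). It remained past the threshold in all 24 alternative settings, with adjusted p at most 0.0422. At wild-type ZT15, 1 array of 3 was high, and CG45263 did not meet the rule without that array (replicate 1), without ZT3 replicate 2 or 3, after centring or quantile normalization, or with the mean of its probe sets. A second probe set of CG45263 averaged 3.32 in cyc0 LNvs, 6.14 in per0 LNvs, 4.44 in wild-type ZT15 LNvs, 2.44 in wild-type ZT3 LNvs and 2.78 in elav neurons. That probe set also differed between the mutants, by -2.82 (SE 0.65, limma adjusted p = 0.04996).

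CG13054 had log2 levels of 2.37, 2.61 and 2.33 in cyc0 LNvs, 7.45, 4.55 and 5.83 in per0 LNvs, 7.91, 7.24 and 7.09 in wild-type ZT15 LNvs, 2.48, 5.73 and 3.86 in wild-type ZT3 LNvs, and 2.76, 2.37 and 2.37 in elav neurons. All cyc0 and elav arrays lay near the bottom of the scale, below every per0 array. CG13054 fell by 3.50 in cyc0 relative to per0 LNvs (SE 0.75, limma adjusted p = 0.0313). This call was lost with no filter (adjusted p = 0.199), in a fit to the 6 arrays alone (0.122), with the replicate number as a block (0.0568), without per0 replicate 1 (0.182) or 3 (0.105), and without cyc0 replicate 1 (0.149), 2 (0.0515) or 3 (0.112).

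Of the 20 genes higher at ZT15, 14 were lower in cyc0 than in per0 LNvs by their means, with a median difference of -0.80, against 2468 of 4718 genes tested in all and a median of -0.04. For the 21 genes higher at ZT3 the difference was positive for 11, with a median of 0.12. Among genes with other symbols that met the same rule, 7 of 48 higher at ZT15 were called lower in cyc0 LNvs (median -0.67), and 3 of 45 higher at ZT3 were called higher (median 0.35). Those 48 include the clock genes tim, per, Pdp1, Cipc and cyc, and tim, per and Pdp1 are among the 7 called. The clock loop had 4 of its 5 CLK/CYC targets called lower in cyc0 LNvs, namely tim (-7.91, adjusted p = 2.25e-07), Pdp1 (-5.02, adjusted p = 0.000761), per (-3.75, adjusted p = 0.0134) and vri (-2.57, adjusted p = 0.0307), all in limma. The fifth, cwo, differed by -1.47 (adjusted p = 0.651). Of 5 other clock genes tested none passed in limma, Cipc being at -1.51 (adjusted p = 0.545), cry at -0.82 (0.86) and cyc at -0.19 (0.973). Clk did not reach the level filter.

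**Figure D2:**
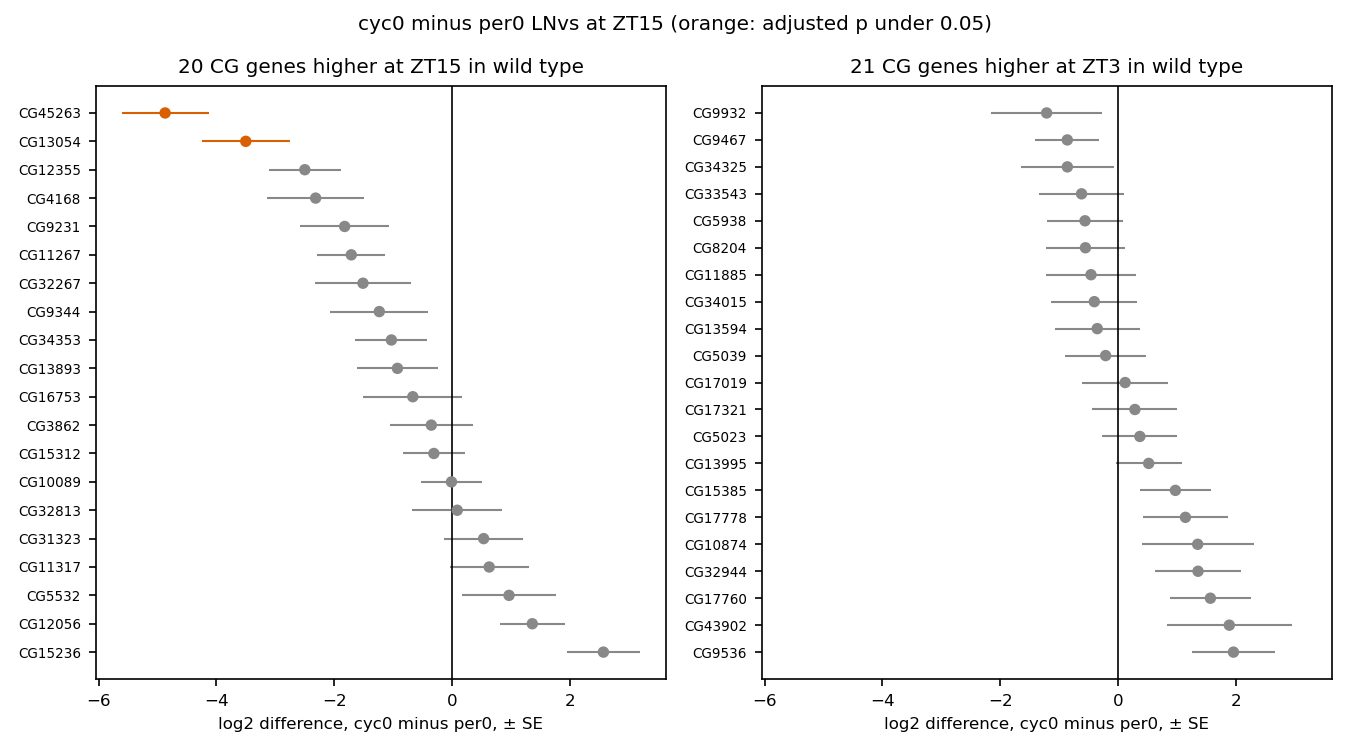
Log2 difference of cyc0 minus per0 LNvs at ZT15 for each of the 41 genes, with its standard error (n = 3 arrays per group), those higher at wild-type ZT15 and at ZT3 shown apart. CG45263 (-4.87) and CG13054 (-3.50) passed an adjusted p of 0.05 and CG15236 had the largest positive difference (2.57).

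A set of 7 genes higher at ZT15 had per0 means on the ZT15 side of the midpoint between the wild-type means, and cyc0 means on the ZT3 side. Besides CG45263 and CG13054 these were CG12355, CG4168, CG9231, CG11267 and CG32267, none of which passed in cyc0 against per0. CG12355 had log2 levels of 2.60, 2.79 and 2.59 in cyc0 LNvs, 5.67, 4.78 and 5.02 in per0 LNvs, 4.21, 6.35 and 4.60 in wild-type ZT15 LNvs, 3.80, 2.62 and 2.60 in wild-type ZT3 LNvs, and 4.11, 2.86 and 2.78 in elav neurons. The cyc0 and per0 arrays did not overlap, and the difference was -2.50 (SE 0.61, limma adjusted p = 0.0767), called with array weights and without wild-type ZT15 replicate 2. CG4168 had log2 levels of 3.57, 4.75 and 6.26 in cyc0 LNvs, 7.37, 6.72 and 7.43 in per0 LNvs, 8.33, 6.24 and 6.52 in wild-type ZT15 LNvs, 3.04, 3.10 and 5.64 in wild-type ZT3 LNvs, and 7.28, 5.32 and 6.45 in elav neurons. Its mutant arrays did not overlap either, but its elav arrays overlapped with those of per0, and the mutants differed by -2.32 (SE 0.82, limma adjusted p = 0.331).

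CG11267 and CG32267 lay in the middle of the scale. CG11267 (Hsp10) had log2 levels of 6.09, 5.29 and 5.95 in cyc0 LNvs, 7.91, 7.07 and 7.49 in per0 LNvs, 8.26, 7.81 and 7.20 in wild-type ZT15 LNvs, 5.79, 5.11 and 5.83 in wild-type ZT3 LNvs, and 5.43, 7.32 and 7.36 in elav neurons. The cyc0 and the ZT3 arrays covered nearly the same range, and so did the per0 and the ZT15 arrays, with a difference between the mutants of -1.71 (SE 0.58, limma adjusted p = 0.299). CG32267 (Tom5) had log2 levels of 5.29, 4.57 and 6.96 in cyc0 LNvs, 7.56, 6.75 and 7.05 in per0 LNvs, 7.66, 8.86 and 6.86 in wild-type ZT15 LNvs, 3.46, 4.73 and 6.17 in wild-type ZT3 LNvs, and 4.54, 4.51 and 6.99 in elav neurons. Here 1 cyc0 array reached the per0 range, so the groups overlapped, and the difference was -1.51 (limma adjusted p = 0.571). CG9231 averaged 4.39 ± 1.70 in cyc0 LNvs and 6.22 ± 0.57 in per0 LNvs with overlapping arrays (SD, n = 3; difference -1.82, limma adjusted p = 0.412).

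**Figure D3:**
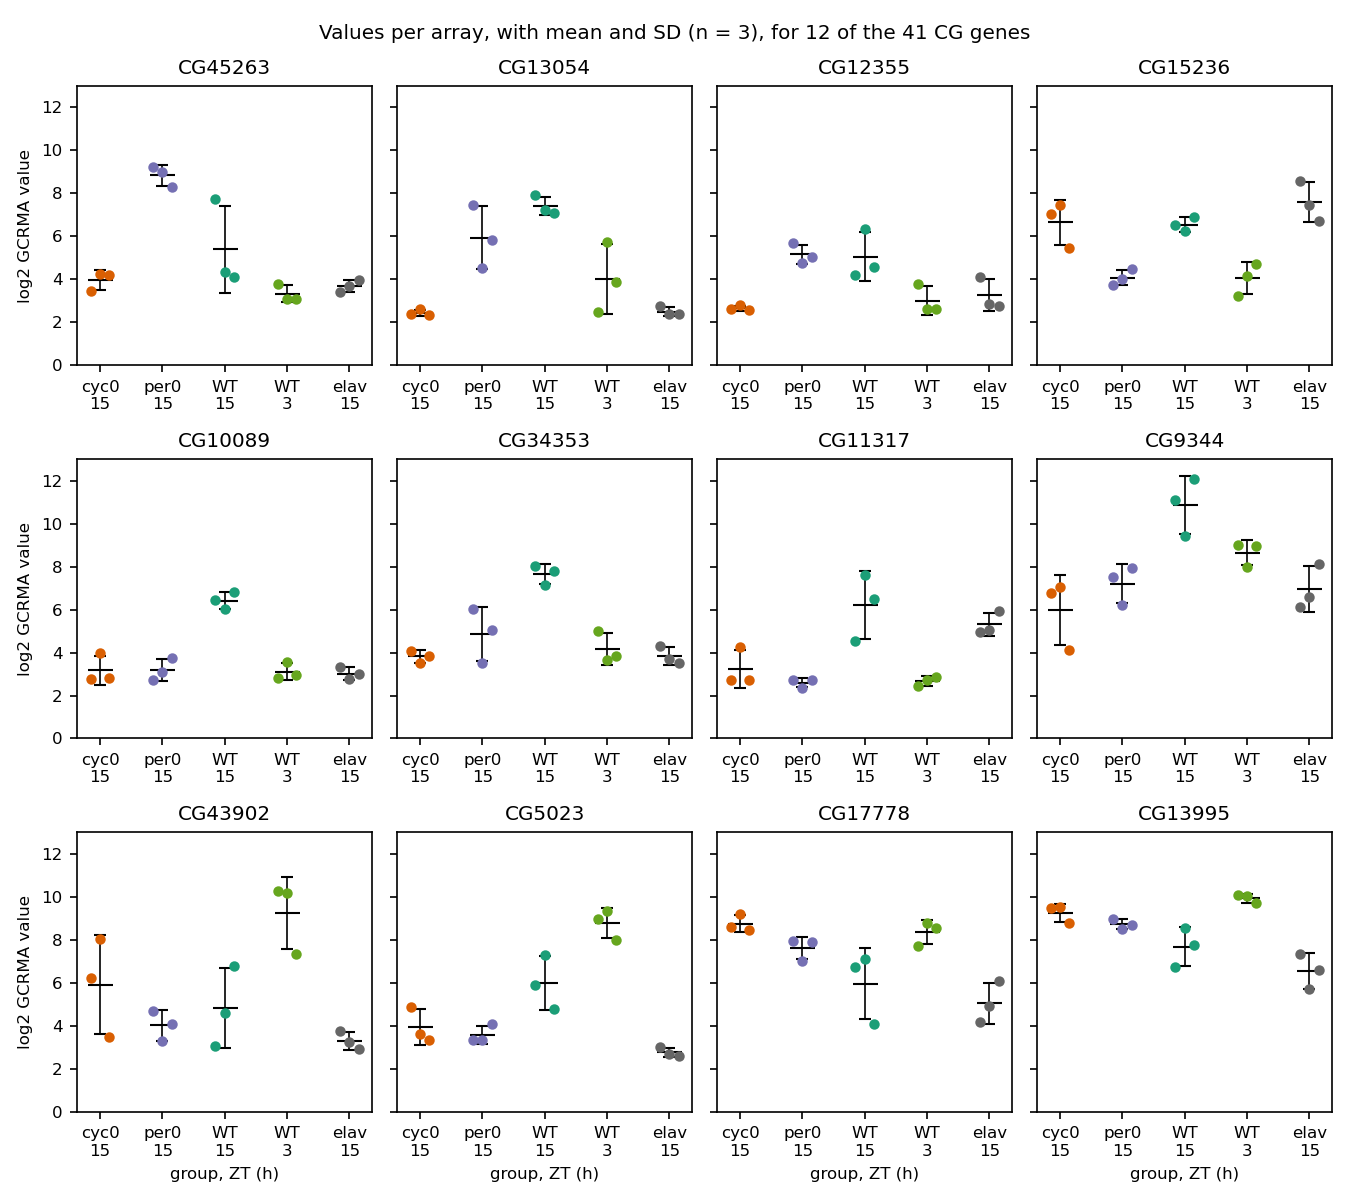
Log2 level of 12 of the genes on each array (points) with the group mean and SD (bars), in the order cyc0, per0, wild type ZT15, wild type ZT3 and elav (n = 3 arrays each). CG45263 and CG13054 stood high in per0 and low in cyc0 LNvs, and CG10089 was above log2 6 on the 3 wild-type ZT15 arrays and below log2 4 on the other 12.

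A larger set of 8 genes higher at ZT15 had both mutant means on the ZT3 side: CG11317, CG34353, CG10089, CG3862, CG31323, CG12056, CG9344 and CG32813. For 6 of them, all except CG11317 and CG32813, elav neurons were on the ZT3 side too. CG10089 had log2 levels of 2.76, 3.97 and 2.80 in cyc0 LNvs, 2.71, 3.10 and 3.75 in per0 LNvs, 6.43, 6.02 and 6.80 in wild-type ZT15 LNvs, 2.81, 3.57 and 2.95 in wild-type ZT3 LNvs, and 3.32, 2.77 and 2.99 in elav neurons. Only the 3 wild-type ZT15 arrays lay above log2 4, and these were the arrays that took it past the level filter. The mutants differed by -0.01 (SE 0.51, limma adjusted p = 0.999).

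CG34353 had log2 levels of 4.09, 3.51 and 3.86 in cyc0 LNvs, 6.01, 3.50 and 5.03 in per0 LNvs, 8.02, 7.15 and 7.79 in wild-type ZT15 LNvs, 5.00, 3.65 and 3.86 in wild-type ZT3 LNvs, and 4.29, 3.72 and 3.50 in elav neurons. The wild-type ZT15 arrays lay above all others, with per0 replicate 1 the nearest. A second probe set that passed the filter differed by 2.63 between the wild-type times. It averaged 5.19 in wild-type ZT15 LNvs and 2.35 to 2.72 in the other groups. Only the wild-type ZT15 arrays took that probe set past the filter, so its difference gives no further support. CG11317 had log2 levels of 2.72, 4.24 and 2.72 in cyc0 LNvs, 2.71, 2.37 and 2.71 in per0 LNvs, 4.53, 7.62 and 6.51 in wild-type ZT15 LNvs, 2.44, 2.71 and 2.87 in wild-type ZT3 LNvs, and 4.97, 5.04 and 5.94 in elav neurons. It was near the bottom of the scale in all per0 and ZT3 arrays and well above it in elav neurons. CG3862 had log2 levels of 4.19, 3.31 and 3.54 in cyc0 LNvs, 3.85, 3.45 and 4.79 in per0 LNvs, 5.65, 6.67 and 8.46 in wild-type ZT15 LNvs, 3.94, 3.29 and 5.20 in wild-type ZT3 LNvs, and 3.56, 4.06 and 5.06 in elav neurons. The wild-type ZT15 arrays of CG3862 spread over almost 3 log2 units, and the nearest ZT3 array was 0.45 below them.

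CG31323 averaged 4.20 ± 1.19 in cyc0 LNvs, 3.66 ± 0.42 in per0 LNvs, 7.30 ± 0.51 in wild-type ZT15 LNvs, 4.64 ± 0.82 in wild-type ZT3 LNvs and 4.84 ± 1.05 in elav neurons (SD, n = 3). CG9344, the brightest gene of this direction, averaged 5.98 ± 1.63 in cyc0 LNvs, 7.21 ± 0.90 in per0 LNvs, 10.86 ± 1.35 in wild-type ZT15 LNvs, 8.64 ± 0.58 in wild-type ZT3 LNvs and 6.95 ± 1.06 in elav neurons. All 6 mutant arrays of CG9344 lay below both wild-type groups. CG12056 had log2 levels of 4.25, 3.69 and 4.87 in cyc0 LNvs and 2.88, 2.86 and 2.97 in per0 LNvs. Here cyc0 was the higher mutant, without overlap, but the difference of 1.36 did not pass (SE 0.55, limma adjusted p = 0.403). CG32813 lay between 5.30 and 8.56 in the mutants, which differed by 0.09 (limma adjusted p = 0.994).

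The remaining 5 genes higher at ZT15 had cyc0 means on the ZT15 side. CG15236 had the largest positive difference between cyc0 and per0 LNvs among the 41 genes. Its log2 levels were 7.04, 7.44 and 5.47 in cyc0 LNvs, 3.75, 4.01 and 4.47 in per0 LNvs, 6.51, 6.24 and 6.90 in wild-type ZT15 LNvs, 3.25, 4.16 and 4.71 in wild-type ZT3 LNvs, and 8.59, 7.44 and 6.74 in elav neurons. The per0 arrays lay in the range of the ZT3 arrays, below all cyc0 arrays. The difference of 2.57 did not pass (SE 0.62, limma adjusted p = 0.0731), but it was called after quantile normalization, with array weights and without cyc0 replicate 3. CG5532 averaged 6.74 ± 1.17 in cyc0 LNvs and 5.77 ± 0.90 in per0 LNvs with overlap (SD, n = 3).

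CG16753, CG13893 and CG15312 had both mutants on the ZT15 side. CG16753 had log2 levels of 4.03, 5.26 and 3.96 in cyc0 LNvs, 5.28, 4.07 and 5.90 in per0 LNvs, 4.43, 5.10 and 8.03 in wild-type ZT15 LNvs, 2.52, 2.78 and 3.07 in wild-type ZT3 LNvs, and 3.09, 5.10 and 5.55 in elav neurons. Its ZT15 mean was raised by 1 array, and its cyc0, per0 and elav arrays overlapped. CG15312 averaged 7.56 ± 0.73 in cyc0 LNvs, 7.87 ± 0.52 in per0 LNvs, 8.02 ± 0.24 in wild-type ZT15 LNvs, 5.50 ± 0.43 in wild-type ZT3 LNvs and 5.27 ± 0.49 in elav neurons (SD, n = 3). All 9 LNv arrays of ZT15 lay above all ZT3 and elav arrays of CG15312. CG13893 averaged 5.24 ± 1.01 in cyc0 LNvs, 6.17 ± 1.06 in per0 LNvs and 6.02 ± 0.86 in wild-type ZT15 LNvs, against 3.28 ± 0.13 in wild-type ZT3 LNvs and 3.77 ± 1.00 in elav neurons.

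Counted over the 20 genes higher at ZT15, the cyc0 mean lay on the ZT15 side for 5 (25%), the per0 mean for 10 (50%) and the elav mean for 7 (35%). Among the 48 genes with other symbols in that direction the counts were 13 (27.1%), 22 (45.8%) and 8 (16.7%). After centring each array on its median the cyc0 count of the CG genes was 3. The wild-type ZT15 mean was the highest of the 5 groups for 13 of the 20, per0 for 5 and elav for 2. Since the choice of genes favours high ZT15 values, lower means in the other groups are partly built into these counts.

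**Figure D4:**
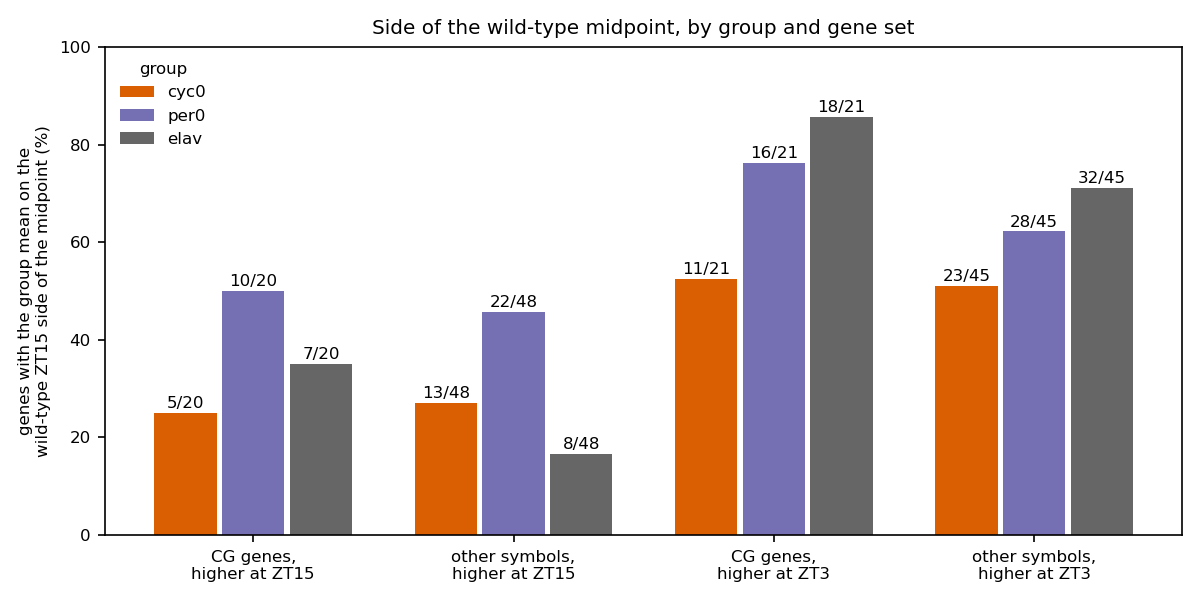
Percent of genes (bars, with counts above) whose cyc0, per0 or elav mean lay on the ZT15 side of the midpoint between the wild-type means, for the CG genes and for genes with other symbols that met the same rule. Of 20 CG genes higher at ZT15, 5 cyc0, 10 per0 and 7 elav means lay on the ZT15 side, and of 21 CG genes higher at ZT3, 11, 16 and 18.

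The 21 genes higher at ZT3 included the gene with the largest wild-type difference, CG43902. Its log2 levels were 6.22, 8.04 and 3.46 in cyc0 LNvs, 4.68, 3.27 and 4.10 in per0 LNvs, 3.08, 4.59 and 6.80 in wild-type ZT15 LNvs, 10.26, 10.20 and 7.34 in wild-type ZT3 LNvs, and 3.74, 3.23 and 2.91 in elav neurons. Replicates of CG43902 differed widely in cyc0 and in both wild-type groups, and cyc0 and per0 overlapped (difference 1.89, SE 1.06, limma adjusted p = 0.588). CG5023 had log2 levels of 4.89, 3.60 and 3.32 in cyc0 LNvs, 3.32, 3.32 and 4.07 in per0 LNvs, 5.90, 7.28 and 4.77 in wild-type ZT15 LNvs, 8.95, 9.36 and 8.01 in wild-type ZT3 LNvs, and 3.02, 2.68 and 2.58 in elav neurons. Both mutants had lower means than wild-type LNvs at either time, and elav neurons lay near the bottom of the scale. The mutants of CG5023 differed by 0.37 (SE 0.64, limma adjusted p = 0.921).

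CG17019 (dRNF34) had log2 levels of 5.46, 6.20 and 3.82 in cyc0 LNvs, 5.64, 4.06 and 5.41 in per0 LNvs, 3.42, 3.39 and 3.89 in wild-type ZT15 LNvs, 7.90, 5.75 and 6.89 in wild-type ZT3 LNvs, and 5.57, 3.34 and 4.35 in elav neurons. The mutant arrays lay between the wild-type times or in part within their ranges. CG33543 had log2 levels of 3.27, 5.20 and 2.73 in cyc0 LNvs, 5.05, 3.70 and 4.31 in per0 LNvs, 3.30, 2.90 and 3.13 in wild-type ZT15 LNvs, 4.23, 7.03 and 5.92 in wild-type ZT3 LNvs, and 3.34, 3.46 and 2.48 in elav neurons. Most of its arrays outside ZT3 lay within 1 log2 unit of the filter or below it. CG9932 had log2 levels of 3.39, 4.41 and 3.73 in cyc0 LNvs, 4.46, 4.13 and 6.57 in per0 LNvs, 4.43, 4.13 and 4.67 in wild-type ZT15 LNvs, 9.67, 5.70 and 5.81 in wild-type ZT3 LNvs, and 3.85, 6.24 and 6.45 in elav neurons. Its ZT3 mean rested largely on replicate 1, and without that array CG9932 did not meet the rule.

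CG9467 had log2 levels of 5.66, 6.89 and 5.67 in cyc0 LNvs, 6.54, 7.45 and 6.81 in per0 LNvs, 5.35, 6.53 and 6.84 in wild-type ZT15 LNvs, 8.50, 9.02 and 8.77 in wild-type ZT3 LNvs, and 6.54, 6.93 and 6.35 in elav neurons. The 12 arrays taken at ZT15 covered a common range, and the 3 ZT3 arrays stood more than 1 log2 unit above it. CG32944 had log2 levels of 5.78, 7.78 and 4.04 in cyc0 LNvs, 4.29, 3.91 and 5.33 in per0 LNvs, 2.93, 2.93 and 2.73 in wild-type ZT15 LNvs, 4.91, 6.16 and 4.95 in wild-type ZT3 LNvs, and 4.33, 3.85 and 4.03 in elav neurons. Here the wild-type ZT15 arrays were the lowest of all 15. CG13594 had log2 levels of 10.10, 9.42 and 7.97 in cyc0 LNvs, 10.02, 8.98 and 9.54 in per0 LNvs, 7.97, 6.60 and 7.92 in wild-type ZT15 LNvs, 9.71, 10.46 and 9.77 in wild-type ZT3 LNvs, and 3.94, 6.64 and 6.49 in elav neurons. Both mutant means of this bright transcript were nearer the wild-type ZT3 mean, although 1 cyc0 array lay at the top of the wild-type ZT15 range.

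For 11 of the 21 genes both mutant means lay on the ZT15 side: CG43902, CG5023, CG17019, CG33543, CG9932, CG9467, CG8204, CG11885, CG5039, CG34325 and CG10874. For 5 the per0 mean was on the ZT15 side and the cyc0 mean on the ZT3 side, namely CG17760, CG9536, CG17321, CG13995 and CG15385. None of these 5 passed in cyc0 against per0. CG17760 had log2 levels of 4.97, 4.82 and 3.15 in cyc0 LNvs, 2.68, 2.36 and 3.20 in per0 LNvs, 2.44, 2.53 and 3.06 in wild-type ZT15 LNvs, 3.79, 5.51 and 4.85 in wild-type ZT3 LNvs, and 2.44, 4.35 and 4.94 in elav neurons. All per0 and ZT15 arrays were below the filter level, and the mutants, which overlapped, differed by 1.57 (limma adjusted p = 0.447). CG9536 averaged 5.84 ± 0.79 in cyc0 LNvs and 3.88 ± 1.09 in per0 LNvs without overlap (SD, n = 3; difference 1.96, SE 0.71, limma adjusted p = 0.341). The other 5 genes, CG13594, CG17778, CG32944, CG34015 and CG5938, had both mutants on the ZT3 side.

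Over the 21 genes the cyc0 mean was on the ZT15 side for 11 (52.4%), the per0 mean for 16 (76.2%) and the elav mean for 18 (85.7%), against 23 (51.1%), 28 (62.2%) and 32 (71.1%) of the 45 genes with other symbols. The wild-type ZT3 mean was the highest of the 5 groups for 17 of the 21. The exceptions were CG5938, highest in per0 LNvs, and CG9536, CG17778 and CG32944, highest in cyc0 LNvs. Here too the choice of genes, for high ZT3 values, partly fixes these counts.

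The mutant LNvs were then compared with elav neurons at the same time of day, to ask which of these transcripts differ between LNvs without a running clock and neurons in general. Both comparisons share the elav arrays, and strain and reporter differ along with cell type. Of the 41 genes, 11 passed between per0 LNvs and elav neurons, 9 higher and 2 lower in per0 LNvs, where 10.2% of all probe sets were called (6.91% higher, 3.33% lower). Between cyc0 LNvs and elav neurons 4 passed, all higher in cyc0 LNvs, where 5.61% of all were called (3.41% higher, 2.2% lower). The median over all probe sets was 0.32 in the first comparison and 0.28 in the second, against -0.03 and -0.09 after centring and 0.10 and 0.11 after quantile normalization. The share of all calls that were higher moved with this, from 67.5% to 50.7% after centring and 54.4% after quantile normalization in the first comparison, and from 60.9% to 43.4% and 51.6% in the second. The differences that passed kept their direction under both scalings, but after centring CG13893 (limma adjusted p = 0.057) and CG13995 (0.0735) lost their calls in per0 against elav neurons. Markers of neuroblasts and the cell cycle summed to log2 6.41 to 8.10 in cyc0 LNvs and 6.36 to 7.55 in per0 LNvs, against 9.89 to 10.09 in elav neurons, and their part in these differences was not tested.

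CG13594, CG17778, CG13995 and CG15312 were higher than in elav neurons in both mutants. CG13594 exceeded elav neurons by 3.47 in cyc0 LNvs (SE 0.72, limma adjusted p = 0.00743) and by 3.83 in per0 LNvs (SE 0.72, adjusted p = 0.0028). CG17778 had log2 levels of 8.62, 9.21 and 8.44 in cyc0 LNvs, 7.93, 7.00 and 7.91 in per0 LNvs, 6.74, 7.10 and 4.07 in wild-type ZT15 LNvs, 7.73, 8.78 and 8.56 in wild-type ZT3 LNvs, and 4.17, 4.93 and 6.07 in elav neurons. Every mutant and ZT3 array lay above every elav array, and the differences were 3.70 for cyc0 (SE 0.72, limma adjusted p = 0.00464) and 2.56 for per0 (SE 0.72, adjusted p = 0.0304). CG13995 had log2 levels of 9.48, 9.52 and 8.78 in cyc0 LNvs, 8.99, 8.52 and 8.71 in per0 LNvs, 6.75, 8.54 and 7.76 in wild-type ZT15 LNvs, 10.07, 10.03 and 9.70 in wild-type ZT3 LNvs, and 7.36, 5.71 and 6.61 in elav neurons. It was bright in all LNv groups, and exceeded elav neurons by 2.70 in cyc0 LNvs (SE 0.56, limma adjusted p = 0.00724) and 2.18 in per0 LNvs (SE 0.56, adjusted p = 0.0186). CG15312, the only one of the 4 from the genes higher at ZT15, exceeded elav neurons by 2.29 in cyc0 LNvs (SE 0.53, limma adjusted p = 0.0135) and 2.60 in per0 LNvs (SE 0.53, adjusted p = 0.00436).

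**Figure D5:**
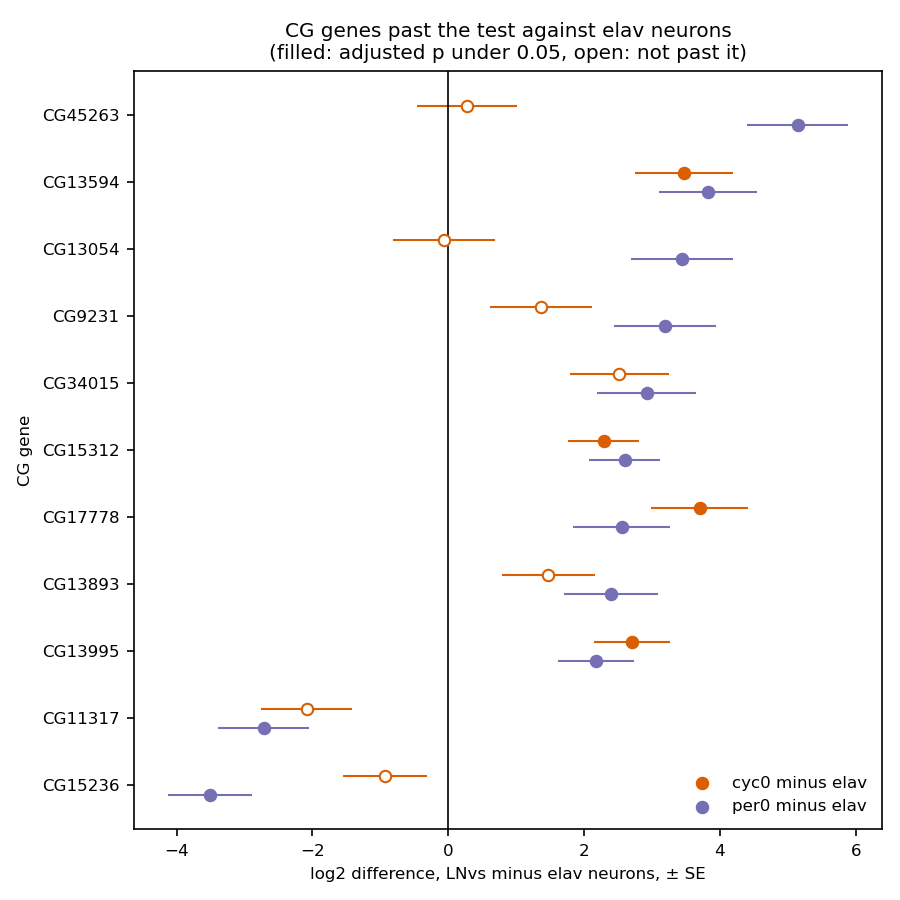
Log2 difference from elav neurons at ZT15 of cyc0 LNvs and per0 LNvs (± SE, n = 3 arrays per group) for the 11 genes that passed an adjusted p of 0.05 in either comparison, with filled points where it passed. CG45263 stood 5.15 above elav neurons in per0 LNvs and 0.27 in cyc0 LNvs, and CG13594 was well above in both.

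The other genes called higher in per0 LNvs did not pass in cyc0 LNvs. CG45263 exceeded elav neurons by 5.15 in per0 LNvs (SE 0.74, limma adjusted p = 0.000321), beside 0.27 in cyc0 LNvs (adjusted p = 0.891). CG13054 exceeded them by 3.44 in per0 LNvs (SE 0.75, limma adjusted p = 0.00701), beside -0.06 in cyc0 LNvs (adjusted p = 0.98). For these 2 genes the direct test of the mutants given above passed as well. CG9231 (3.19, limma adjusted p = 0.0118) and CG34015 (2.92, adjusted p = 0.0162) were also higher in per0 LNvs, beside 1.37 and 2.52 in cyc0 LNvs (adjusted p = 0.34 and 0.0517). CG34015 passed in cyc0 as well after centring, after quantile normalization, with the stricter filter, with 1 probe set per gene, with array weights, and without wild-type ZT15 replicate 1 or elav replicate 3. The same direction in per0 LNvs was called for CG13893 (2.40, limma adjusted p = 0.0341), beside 1.47 in cyc0 LNvs (adjusted p = 0.243). For CG9231, CG34015 and CG13893 the direct difference between the mutants did not pass.

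CG15236 and CG11317 were lower in per0 LNvs than in elav neurons. CG15236 fell by 3.51 in per0 LNvs relative to elav neurons (SE 0.62, limma adjusted p = 0.00174), while in cyc0 LNvs the difference was -0.93 (adjusted p = 0.449). CG11317 fell by 2.72 in per0 LNvs (SE 0.67, limma adjusted p = 0.0155), beside -2.09 in cyc0 LNvs (adjusted p = 0.0798), and passed in cyc0 as well after centring or quantile normalization, with array weights and without wild-type ZT15 replicate 1. Both belong to the genes higher at ZT15, and both stood in elav neurons above their wild-type ZT3 level.

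Several of these calls depended on the filter or on single arrays. With no filter 5 of the 41 genes passed in per0 against elav neurons, and CG13893 (limma adjusted p = 0.068) and CG34015 (0.0532) were lost in a fit to the 6 arrays alone. In per0 against elav neurons, 4 of the 41 genes passed without per0 replicate 1 (CG45263, CG15236, CG15312 and CG13594), and 7 without per0 replicate 3 or without elav replicate 2. The 4 genes just named and no other passed in all 24 alternatives of that comparison. In cyc0 against elav neurons, CG17778 and CG13995 passed in all 24, while CG15312 was lost without elav replicate 1 (adjusted p = 0.0666) and CG13594 without cyc0 replicate 1 (0.0549), and both in a fit to the 6 arrays alone (0.0783 and 0.0754).

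The genes still to be described had no call in any of the 3 comparisons. CG8204, CG11885, CG5039, CG17321, CG34325, CG10874 and CG15385, all higher at ZT3, had mutant means between 3.34 and 6.45. CG5039 had values of 3.92, 7.35 and 6.09 in wild-type ZT3 LNvs, so that 1 of its arrays was 0.24 above the highest ZT15 array. CG34325 had values of 5.63, 2.73 and 2.73 in wild-type ZT15 LNvs, against 5.90, 6.47 and 5.85 at ZT3, so that 1 ZT15 array nearly reached the ZT3 range. CG10874 had values of 3.32, 4.93 and 3.76 in wild-type ZT15 LNvs, against 5.04, 8.80 and 5.38 at ZT3. In CG15385 the 3 wild-type ZT15 arrays lay between 2.65 and 2.72, below all other arrays of that gene. CG5938 averaged 6.90 ± 0.35 in cyc0 LNvs and 7.46 ± 1.08 in per0 LNvs, against 5.51 ± 0.54 in elav neurons (SD, n = 3), and per0 differed from elav neurons by 1.96 (limma adjusted p = 0.062).

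Of the 41 genes 8 had more than 1 probe set, with 18 further probe sets in all, of which 2 passed the level filter. Those were the second probe sets of CG34353 and CG45263 given above, and both had the same sign as the probe set used. For CG34353 that sign was set by the filter, since its second probe set passed through the wild-type ZT15 arrays only. The other 16 did not reach log2 4 in 3 arrays, so for CG10089, CG4168, CG10874, CG33543, CG9932 and CG43902 the results rest on a single measurable probe set. The probe sets used for 7 genes, among them CG45263, CG15236 and CG10089, are of the type that can match several related transcripts.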

How the data were processed

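Sorted neurons were dissociated for 2 h and their RNA underwent amplification (NuGen WT-Ovation kit), per the labels' protocols. The values are the authors' deposited log2 values, for which the submitters' processing notes name GCRMA, with its version and array grouping not given in the sources used here. This method gathers transcripts below background near the bottom of the scale. Of 18869 probe sets, 100 were controls, which were not tested. A single gene symbol was paired with 13646 of the rest, while 402 had several and 4721 were unnamed here. Current symbols came from a RefSeq gene table.

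A mean per group was fitted with lmFit and eBayes of limma 3.58.1 (R 4.3.3) to all 15 arrays and the 5829 probe sets past the filter (prior degrees of freedom 7.46, median SE of a difference 0.66). Comparisons with wild-type LNvs share arrays with the rule and were not tested. The p-values were two-sided, adjusted by Benjamini-Hochberg within each comparison. They measure the spread between these arrays, and 3 arrays per group limit the precision. Deviations of arrays with the same replicate number were weakly correlated (-0.19 to 0.20), and the main fit did not pair arrays. Such correlations cannot show whether arrays of a number shared a day or batch, so a fit with the replicate number as a block is given as an alternative. In data simulated with known differences, cyc0 against per0 recovered 27% of probe sets at a log2 difference of 2 and 95% at 4, per0 against elav 25% and 97%, and cyc0 against elav 28% and 96%. The simulated noise was normal, independent and equal for all arrays, with no floor, so recovery in the real arrays can differ from these rates. All 41 genes were named, and values in every array were given for those called in cyc0 against per0, the 8 largest wild-type differences per direction and some others chosen after their values were seen. The genes and marker lists were chosen with earlier results of these data known. Alternatives changed the filter, scaling, prior, weights, arrays in the fit, probe set choice, block and each array. Promoter and other sequences were not used here.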

Additional observations from a re-analysis of the deposited data

How the results depend on the processing

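In cyc0 against per0, 2 of the 41 genes passed, against 1 with no filter, 1 in a fit to the 6 arrays compared, 1 with the replicate number as a block, 14 with array weights, and 1 to 3 with single arrays left out. In per0 against elav neurons 11 passed, against 5 with no filter, 11 with the replicate block, and 4 to 13 with single arrays left out. In cyc0 against elav neurons 4 passed, against 10 with array weights, 2 in a fit to 6 arrays, 4 with the replicate block, and 3 to 6 with single arrays left out. The weights ran from 0.52 to 4.27, highest for cyc0 replicate 1, and the cause of the added calls was not tested. Estimation of the weights gave convergence warnings, so results with array weights are given only as an alternative. Over all probe sets, the 46 calls of cyc0 against per0 became 24 with no filter, 817 with weights, 21 with 6 arrays and 20 without cyc0 replicate 1. The 597 calls of per0 against elav became 347 with no filter, 1286 with weights and 246 without per0 replicate 1, and the 327 of cyc0 against elav became 826 with weights, 498 after quantile normalization, 169 with 6 arrays and 166 without cyc0 replicate 1. The block cost CG13054 its call in cyc0 against per0 (limma adjusted p = 0.0568). Over 407 alternatives of called genes, 366 kept the call, 41 lost it and 0 turned direction. Many alternatives left the difference itself unchanged and could not turn it. These were other filters or priors, the fit to the arrays compared, the block, and leaving out an array outside the comparison.

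The rule itself gave 41 genes, against 74 at a difference of 1.5 and 9 at 3, 38 after centring (34 shared) and 35 after quantile normalization (33 shared). With a wild-type array left out it gave 50 to 59, of which 32 to 35 were among the 41, since non-overlap is met more easily with fewer arrays. CG10089 then failed the level filter without any of the ZT15 arrays. The cyc0 means on the ZT15 side numbered 5 of 20 genes higher at ZT15, 3 after centring, and 5 to 6 with cyc0 arrays left out. The ranges were 9 to 12 for cyc0 in genes higher at ZT3, and 9 to 11 and 12 to 17 for per0 in the 2 directions. Arrays near the bottom of the scale cannot order levels, which limits the 13 genes with a time below log2 4.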

Other observations

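The genes higher at ZT15 and those higher at ZT3 lay differently along the chromosome arms of the RefSeq table. Of the 20 higher at ZT15, 3 were on X, 2 on 2L, 3 on 2R, 8 on 3L and 4 on 3R. Of the 21 higher at ZT3, 4 were on X, 8 on 2L, 4 on 2R, 0 on 3L and 5 on 3R. Taken as a whole, 24.4% of the 41 genes were on 2L against 17% of CG-number genes past the filter, and 19.5% on 3L against 18.9%. For X the shares were 17.1% and 19%, for 2R 17.1% and 19.8%, and for 3R 22% and 24.8%. The split by direction was noticed in the data and carries no test. The closest neighbours were CG15385 and CG10874 on 2L, both higher at ZT3, with 3 coding genes between them, and CG15312 and CG43902 on X, of opposite direction, with 6 between them.

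The number of a CG gene can stand for more than 1 earlier gene model. Of the 41 genes 8 had older CG numbers among their synonyms, with 11 for CG45263, 7 for CG34353, 2 each for CG32813, CG32944, CG33543 and CG43902, and 1 each for CG31323 and CG34325.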
